A study of Homo sapiens with 2 samples.

Results

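The genes described here are 9 members of the plasminogen system: the activators PLAT and PLAU, the zymogen PLG, the receptors PLAUR and PLGRKT, and the serpins SERPINE2, SERPINI1, SERPINF1 and SERPINF2. They were taken as every probe set annotated to a single one of these genes, which gave 15 of the 54675 probe sets on the array and 9 of 19775 named genes. The RNA came from SK-N-MC, a human tumour cell line that the submitters call a neuroepithelioma line and that is now placed in the Ewing tumour family. Both stably transfected lines carried the pCMV-Script expression vector. The control line, numbered 1 in its label, held the vector without an insert, and hyperexpression clone 4 held the cDNA of human melanotransferrin (MELTF). Total RNA of each line was hybridised to 1 Affymetrix U133 Plus 2.0 array. The CMV promoter of such vectors is active in most cell types. Each group is thus 1 array of 1 transfected line, and the effect of the insert cannot be told apart from differences between lines, cultures or arrays. There is no replicate, no SD over samples and no test between the groups for any value.

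Plasminogen is a circulating proenzyme that is cleaved to plasmin, a serine protease that dissolves fibrin and cuts matrix proteins. The tissue-type (PLAT) and urokinase-type (PLAU) activators make that cut, mostly on surfaces: the GPI-anchored receptor PLAUR holds urokinase, and proteins with a C-terminal lysine, such as PLGRKT, hold plasminogen. Serpins end the reaction by trapping the protease in a covalent complex. Melanotransferrin, itself a GPI-anchored relative of transferrin, has been linked to this system through binding of plasminogen, and the members were chosen for that link.

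Signals are probe set intensities on a linear scale and were read against a floor of 208, which is the 90th percentile of 191 probe sets for genes of smell, taste and hair keratin that these cells should not express. A signal at or over the floor is called readable here. Probe sets readable on neither array were treated as not measured. Where 1 array was under the floor it was set to the floor, and the ratio is a bound. Levels of different probe sets cannot be ranked against each other, because each has its own response. The transfected gene was checked first. The MELTF probe set annotated to the accession of the insert read 18.4 in the control line and 4449.4 in the clone, at least 21.4-fold higher, while none of its other 3 probe sets was both readable and higher in the clone. Of 12 genes listed as markers of Ewing tumour cells, 11 had a probe set and all 11 were readable on both arrays. Of 10 hepatocyte markers, the cell type that makes circulating plasminogen, 8 were readable on neither array, and the brightest probe sets of the 10 summed to 1331 in the control line and 1393 in the clone. The 191 background probe sets had a median signal of 67.4 in the control line and 44.0 in the clone.

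Of the 15 member probe sets, 7 were readable on both arrays, 1 in the control alone and 7 on neither. At gene level, taking the probe set with the highest mean signal, 6 of 9 members were measured and 5 of these were readable on both arrays. SERPINE2 and PLGRKT were higher in the clone, and PLAUR, SERPINI1 and SERPINF1 were lower. PLG had only a bound, and PLAT, PLAU and SERPINF2 were not measured.

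**Figure D1:**
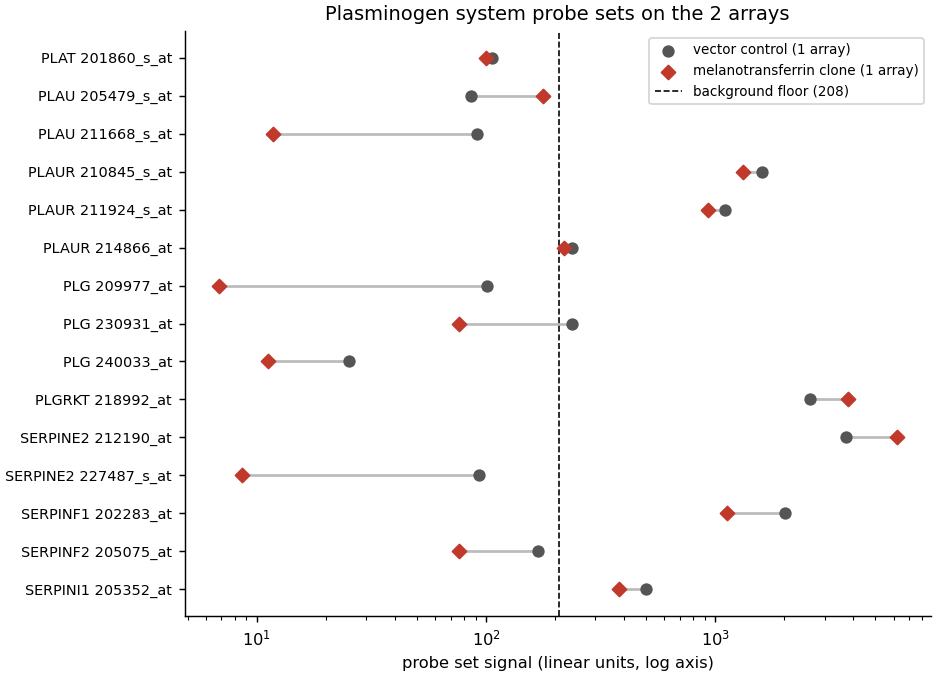
Signal of each of the 15 member probe sets (log axis, linear intensity units) on the vector control array (grey circles) and the melanotransferrin clone array (red diamonds), with the floor of 208 as a dashed line. The brighter SERPINE2 probe set and that of PLGRKT lie far right of the floor with the clone to the right, SERPINF1 and PLAUR have the clone to the left, and 7 probe sets lie left of the floor on both arrays.

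Neither activator gave a measurable signal. PLAT, the tissue-type activator encoded on chromosome 8, read 106.3 in the control line and 100.1 in the clone on its 1 probe set. PLAU, the urokinase gene on chromosome 10, read 86.1 and 176.8 on the probe set annotated to its reference transcript. The other PLAU probe set read 91.0 in the control line and 11.8 in the clone, so the pair pointed in opposite directions, and all 4 values were below the floor. No direction is given for either activator, since signals of this size were common among genes that this cell type should not express.

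PLG, the substrate of both activators, is mainly a liver product, and its 3 single-gene probe sets (chromosome 6) were at or near background. One read 235.9 in the control, just above the floor, and 76.3 in the clone. The others read 100.4 and 6.8, and 25.3 and 11.2. A further probe set shared by PLG and LPA, a closely related gene, was not assigned to either and read 14.1 and 13.5. Only the first value of these 8 passed the floor, which gave a bound of 1.13-fold lower in the clone on that probe set. The floor is a percentile of background signals, so some background values pass it. The value of 235.9 is thus not set apart from background. Of the 7 member probe sets readable on neither array, 6 were lower in the clone; of 17101 single-gene probe sets in that position, 61.7% were lower. The part of the lower background in the PLG values was not tested.

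PLAUR, the urokinase receptor on chromosome 19, was the member with the most probe sets above the floor. Its 3 probe sets read 1594.2 in the control line and 1328.2 in the clone, 1108.3 and 930.0, and 237.9 and 219.1. All 3 were lower in the clone, at log2 ratios of -0.26, -0.25 and -0.12, or 1.20-, 1.19- and 1.09-fold. The only measure of error on these arrays is the disagreement between probe sets of 1 gene, a pooled SD of 0.35 in the log2 ratio over 5387 genes. The PLAUR differences are smaller than that SD. They are also common in size, since 19.5% of the 10795 genes readable on both arrays were lower by at least as much as its brightest probe set.

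PLGRKT, a small transmembrane protein that exposes a C-terminal lysine and binds plasminogen, read 2581.9 in the control line and 3792.0 in the clone on its 1 probe set. The signal was 1.47-fold higher in the clone, a log2 ratio of 0.55. Among the genes readable on both arrays, 5.87% were higher by at least that much. The value exceeds the probe set SD of 0.35, and also the 0.21 found where every probe set of a gene had a mean signal over 2000. It rests on 1 probe set, and neither SD measures variation between lines, cultures or arrays.

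SERPINE2, also called protease nexin 1, is a secreted inhibitor of thrombin, urokinase and tissue-type activator that is held at the cell surface by glycosaminoglycans. On the brighter of its 2 probe sets it read 3731.7 in the control line and 6191.5 in the clone, 1.66-fold higher, with a log2 ratio of 0.73. Of the 10795 genes, 3.05% were higher by at least as much, and 2.05% of the 7425 genes with a mean signal over 1000. The second SERPINE2 probe set read 93.3 and 8.6 and so was readable on neither array. The gene is thus bright on 1 probe set and at background on the other, and whether both target the same transcript was not tested.

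SERPINE2 and PLGRKT were the 2 measured members that were higher in the clone, and their promoters are shown to set the genes side by side. The arrays measure RNA and say nothing of these sequences. They are from RefSeq on GRCh38.p14, with 250 bases before and 50 bases after a transcript start, on the minus strand of each chromosome, and capitals mark the CCAAT box (the letters CCAAT, searched on both strands, so also as ATTGG). SERPINE2 has 2 starts in the table, at chr2:224031429-224031728 and chr2:224038591-224038890, and PLGRKT has 1, at chr9:5437876-5438175.
SERPINE2 first start: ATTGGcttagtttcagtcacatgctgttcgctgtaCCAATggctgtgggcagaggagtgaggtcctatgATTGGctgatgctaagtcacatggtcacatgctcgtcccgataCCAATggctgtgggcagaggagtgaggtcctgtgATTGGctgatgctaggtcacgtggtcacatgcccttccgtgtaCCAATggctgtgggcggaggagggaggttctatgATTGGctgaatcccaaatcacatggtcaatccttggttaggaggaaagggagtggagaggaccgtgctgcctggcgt
SERPINE2 second start: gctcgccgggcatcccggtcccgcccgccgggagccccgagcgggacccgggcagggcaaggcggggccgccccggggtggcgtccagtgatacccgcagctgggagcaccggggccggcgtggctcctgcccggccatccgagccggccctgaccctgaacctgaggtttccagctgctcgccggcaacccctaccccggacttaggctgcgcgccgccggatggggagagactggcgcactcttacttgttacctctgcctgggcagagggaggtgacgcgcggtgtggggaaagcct
PLGRKT: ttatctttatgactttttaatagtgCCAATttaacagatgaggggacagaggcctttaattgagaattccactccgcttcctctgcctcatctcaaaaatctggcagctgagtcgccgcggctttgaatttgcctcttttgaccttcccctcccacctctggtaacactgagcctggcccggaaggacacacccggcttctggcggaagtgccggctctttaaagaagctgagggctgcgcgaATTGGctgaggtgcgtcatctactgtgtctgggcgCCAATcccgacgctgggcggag

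The first SERPINE2 promoter held 7 CCAAT boxes, the second 0 and the PLGRKT promoter 3. Over 35116 promoters of the same length, 34.6% held at least 1, 3.26% held 3 or more and 8 promoters (0.0228%) held 7 or more. The first SERPINE2 promoter is internally repeated: a stretch of 33 bases, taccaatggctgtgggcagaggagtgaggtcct, occurs at positions 34 and 111 counted from its 5' end. The first 17 bases of that stretch, taccaatggctgtgggc, occur once more at position 188. The box was searched for after the sequences had been seen, and a match is a description of the letters, not of a bound factor.

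SERPINI1, or neuroserpin, is the inhibitor of tissue-type activator made by neurons. It read 496.9 in the control line and 381.6 in the clone on its 1 probe set (chromosome 3), 1.3-fold lower with a log2 ratio of -0.38. That is about the size of the disagreement between probe sets at low signal, for which the pooled SD was 0.40 over genes with a probe set of mean signal under 500. Of the 10795 genes, 12.3% were lower by at least as much.

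The remaining pair of serpins are neighbours in name and lie on chromosome 17. SERPINF2, alpha-2-antiplasmin, is the main inhibitor of plasmin in plasma and a liver product. It was not measured, at 169.0 in the control line and 76.1 in the clone. SERPINF1, pigment epithelium-derived factor, keeps the serpin fold without inhibiting proteases and is known as an inhibitor of new vessel growth and a neurotrophic factor. It read 2017.3 in the control line and 1123.3 in the clone on its 1 probe set, 1.80-fold lower with a log2 ratio of -0.84. This was the largest ratio among the 5 members readable on both arrays. Of the 10795 genes, 2.28% were lower by at least as much, and of the 7425 with a mean signal over 1000, 39 genes or 0.525% were.

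**Figure D2:**
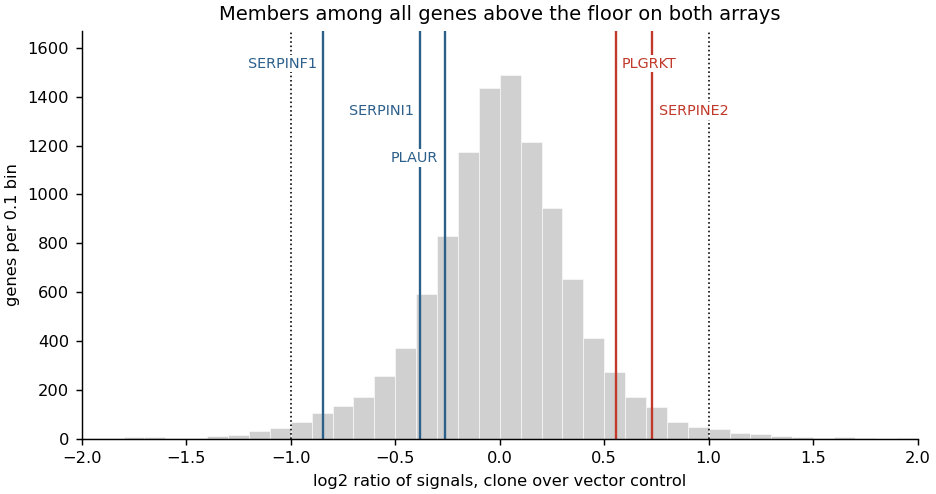
Histogram of the log2 ratio of clone over control for the 10795 genes readable on both arrays, in bins of 0.1, with the 5 members readable on both arrays as lines (red higher, blue lower in the clone) and a ratio of 2 as dotted lines. No member passes a ratio of 2; SERPINF1 lies furthest out on the left at -0.84 and SERPINE2 on the right at 0.73.

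Counted by a fixed ratio of 2, 0 of 6 measured members differed between the arrays. Over all 12663 measured genes the share was 3.10%, with 1.21% higher and 1.90% lower in the clone, so a count of 0 among 6 is near the background. Those shares include bounds, whose direction was fixed by the floor. Genes readable in the control alone were 1426, and those readable in the clone alone 442. Among the 10795 genes readable on both arrays, 120 were higher and 125 lower past a ratio of 2. At a ratio of 1.5, added after the data had been seen, 1 member was higher (SERPINE2) and 1 lower (SERPINF1), against 13.8% of all measured genes in either direction. The median log2 ratio of the 6 members was -0.22, and that of all measured genes -0.022. The 2 counts of members and their median describe these arrays, and nothing particular to the members follows from them. PLG, readable in the control alone, could only come out lower; the 5 members readable on both arrays had a median of -0.26.

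The members differed in whether nearby genes on the chromosome moved with them. PLGRKT lies on chromosome 9, where 89.9% of the other 444 genes readable on both arrays were higher in the clone, with a median log2 ratio of 0.48. On the other chromosomes together 49.5% were higher. Chromosome 9 had the highest median of the 23 chromosomes described, ahead of chromosome 13 at 0.14. The PLGRKT ratio of 0.55 therefore lay close to the median of its chromosome. Of the 5 nearest such genes on each side, 9 of 10 were higher, with a median of 0.54 and a range from -0.34 to 0.72. The next gene in order, RIC1, which acts in Golgi trafficking, read 1470.3 and 2169.9, a log2 ratio of 0.56. The nearest gene on the other side had a log2 ratio of 0.17. The part of this chromosome-wide difference in the PLGRKT value was not tested.

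The other 4 members readable on both arrays lie on chromosomes with medians near 0. PLG, which had only a bound, had 8 neighbours higher and 2 lower. For SERPINE2 on chromosome 2, 5 of 10 neighbours were higher and 5 lower, with a median of -0.002, and the chromosome's median was 0.017. SERPINF1 on chromosome 17 had 5 neighbours higher and 5 lower, none of them lower by more than 0.32, and a chromosome median of -0.041. SERPINI1 had a split of 5 and 5, and its 5 lower neighbours were those next to it in order, from -0.23 to -0.02. PLAUR had a split of 6 higher and 4 lower. The neighbours of SERPINE2 ranged widely, from -0.71 to 0.91, so its own ratio of 0.73 lay inside their range, and that of PLAUR lay inside the range of its own neighbours, whereas the ratios of SERPINF1 and SERPINI1 lay below the lowest of their neighbours, at -0.32 and -0.23.

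**Figure D3:**
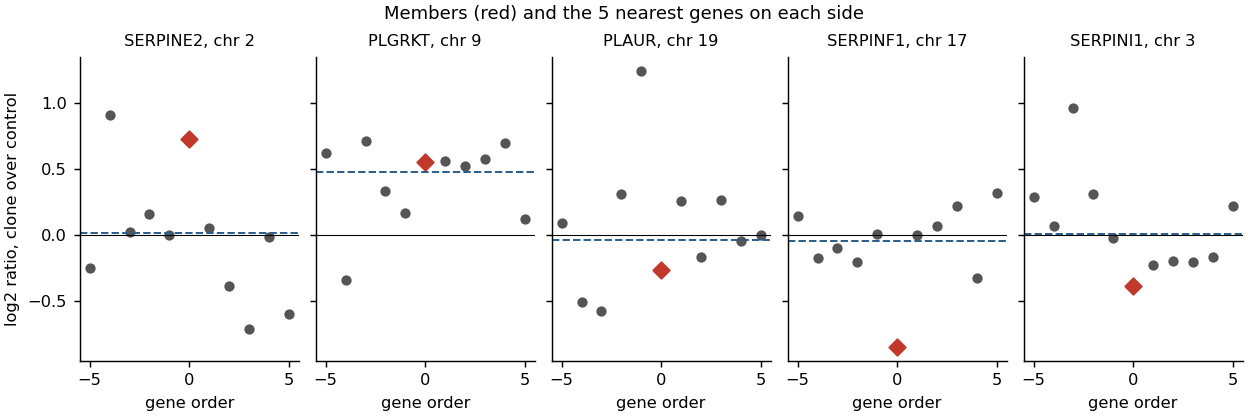
Log2 ratio of clone over control for each member readable on both arrays (red diamond, order 0) and the 5 nearest genes readable on both arrays on each side (grey), by gene order on the chromosome, with the median of the other genes of that chromosome as a dashed line. The neighbours of PLGRKT lie around the chromosome 9 median of 0.48, and those of the other 4 members lie around medians near 0.

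Beyond the 9 members, 5 lists covered other genes of the system, with 79 listed genes, of which 8 are not analysed here and 43 were measured. Of these 43, 2 passed a ratio of 2, a count near the background share of 3.1% over all 12663 measured genes. Both were higher in the clone, and both lie on chromosome 9. The other 41 genes, on other chromosomes, had 0 past that ratio. The 33 of them readable on both arrays had a median log2 ratio of -0.063. The first was VLDLR, an endocytic receptor that takes up protease-serpin complexes, at 227.9 and 572.7, which is 2.51-fold higher. The second was TNC, the matrix protein tenascin C, at 304.3 and 777.5, 2.56-fold higher. Both control signals were close to the floor, and each gene had 1 probe set readable on both arrays. With the floor set 2 times as high, 0 of the listed genes passed.

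Among proteins that bind plasminogen at the cell surface, 5 of 9 listed genes were measured and 0 passed a ratio of 2. The 3 with the highest mean signal differed by at most 1.07-fold between arrays. ANXA2, the annexin that docks plasminogen and tissue-type activator, read 46630.2 in the control line and 47233.2 in the clone. ENO1, the glycolytic enolase that is also found on the surface, read 63481.8 and 59479.0, and HMGB1, a chromatin protein that can be secreted, 56953.3 and 54523.2. S100A10, the annexin partner whose C-terminal lysine binds plasminogen, read 3326.9 and 3855.0. The 4 genes readable on both arrays had a median of -0.022, against the 0.55 of PLGRKT. ITGB2 had only a bound, of 1.47-fold higher.

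Of 17 clearance receptors and partners of PLAUR, 13 were measured and 11 were readable on both arrays, 4 of them higher and 7 lower in the clone, with a median of -0.055. The integrin chains ITGB1 and ITGAV, with which PLAUR associates, read 16769.3 and 16137.8, and 5686.2 and 6211.6. IGF2R, which binds PLAUR, read 2902.7 and 2994.1. The endocytic receptor LRP1, which removes urokinase bound to inhibitor together with PLAUR, was dim at 472.3 and 372.1. Apart from VLDLR, none of the list passed a ratio of 2.

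Of 17 other inhibitors 4 were readable on both arrays, 1 higher and 3 lower in the clone, with a median log2 ratio of -0.64. SERPINB9 and A2M were readable in the control alone, so they could only come out lower. SERPINH1, a collagen chaperone with a serpin fold, read 14131.9 in the control line and 9292.5 in the clone, 1.52-fold lower. SERPING1, the inhibitor of complement C1 and of contact proteases, read 451.3 and 244.1, 1.85-fold lower. SERPINH1 and SERPING1 each rest on 1 probe set, and the clone signal of SERPING1 was close to the floor. CPB2 went the other way: this carboxypeptidase, which strips C-terminal lysines from fibrin and so slows plasminogen binding, read 1786.1 and 2828.8, 1.58-fold higher. It rests on 1 probe set and lies on chromosome 13, where 72.7% of genes were higher. None of these 6 passed a ratio of 2.

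Of the list of other activating proteases, 5 genes were readable on both arrays, and these 5 were lower in the clone, with a median log2 ratio of -0.16; over all genes readable on both arrays 48.8% were lower. F12 and MMP2 were readable in the control alone, so their direction was fixed by the floor. None of the 7 passed a ratio of 2. MMP14, a membrane-anchored metalloprotease, read 1080.3 and 571.5, 1.89-fold lower, on the 1 of its 4 probe sets readable on both arrays. KLK1, tissue kallikrein, read 601.4 and 369.0, 1.63-fold lower. CTSB, the lysosomal protease cathepsin B that can activate pro-urokinase, read 4856.4 and 4648.6, with log2 ratios between -0.40 and 0.19 across its 5 probe sets.

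Of 23 substrates of plasmin 12 were measured and 11 were readable on both arrays, 7 of them higher and 4 lower, with a median of 0.15. FN1, fibronectin, read 5295.3 and 5742.3 on its brightest probe set, but its 5 probe sets readable on both arrays disagreed, with log2 ratios from -1.32 to 0.47. The laminin chains LAMB1 and LAMC1 read 6118.4 and 8244.0, and 4042.1 and 4476.4, and the second probe set of each was lower in the clone (-0.088 and -0.15). TNC was the member past a ratio of 2. The fibrinogen chains FGB and FGG, which form fibrin, were readable on neither array, and FGA was readable in the control alone, at 272.3 against 70.8.

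**Figure D4:**
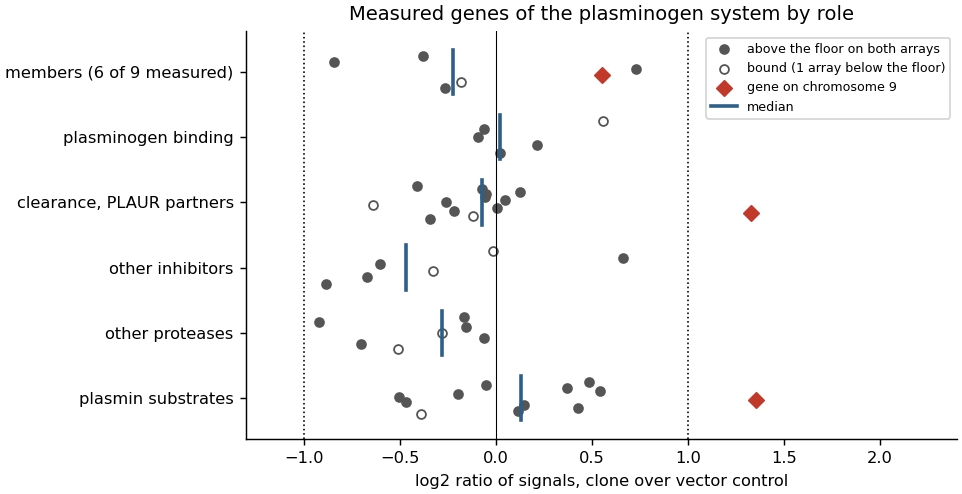
Log2 ratio of clone over control for every measured gene of the 9 members and the 5 other lists, with filled circles for genes readable on both arrays, open circles for bounds, red diamonds for genes on chromosome 9, a blue bar for the list median and dotted lines at a ratio of 2. The 2 genes past a ratio of 2 are both red; of the genes readable on both arrays, 3 of 4 inhibitors and 5 of 5 proteases lie left of 0.

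Each direction above is relative to the bulk of genes, since the arrays were scaled to equal means, and the 2 kinds of control spike pointed opposite ways. All 18 probe sets for hybridisation spikes were lower on the clone array, at a median log2 ratio of -0.50, and all 24 for poly-A spikes were higher, with a median of 0.61. Centred on the hybridisation spikes, the median of all genes moved to 0.46 and the split past a ratio of 2 was 975 higher and 92 lower; centred on the poly-A spikes, it moved to -0.57 and the split was 13 and 1237, against 153 and 240 as deposited. PLGRKT then had a log2 ratio of 1.06 or -0.056, SERPINE2 of 1.23 or 0.12, SERPINF1 of -0.34 or -1.46, PLAUR of 0.24 or -0.87 and SERPINI1 of 0.12 or -0.99. Taken relative to the median of all genes in the same setting, the values ran from 0.69 to 0.81 for SERPINE2, from 0.52 to 0.63 for PLGRKT, from -0.88 to -0.77 for SERPINF1, from -0.42 to -0.27 for SERPINI1 and from -0.30 to -0.11 for PLAUR. Most of these alternatives can widen such a range only a little. A centring shifts all readable genes alike, so most of it is removed when the median is subtracted. It does not cancel fully, because the floor stays fixed and the median moves by a different amount. A change of floor moves the median, but not a gene that stays above the changed floor on both arrays. SERPINI1 did not stay above it. With the floor times 2, its clone signal of 381.6 was under the floor and its ratio became a bound of -0.26. The -0.27 end of its range comes from that bound. All alternatives use the same 2 arrays, so the ranges are no measure of error.

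**Figure D5:**
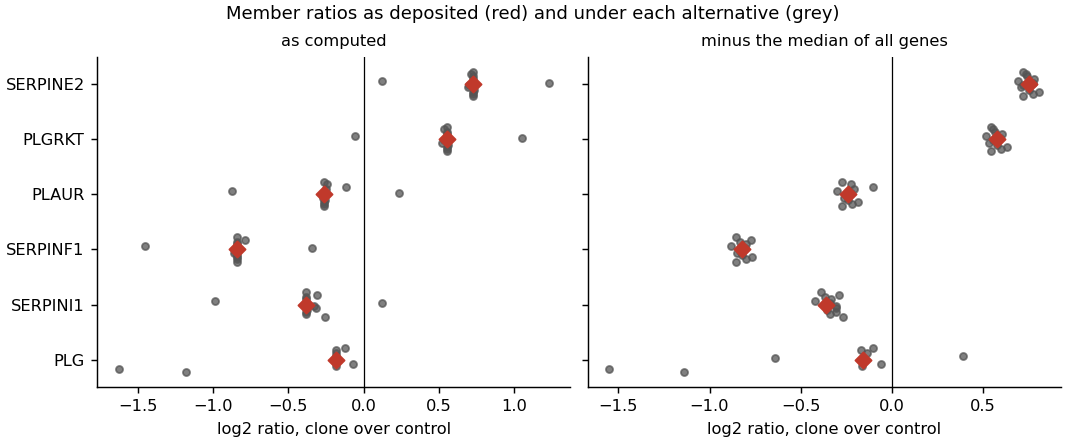
Log2 ratio of clone over control for the 6 measured members as deposited (red diamonds) and under each alternative (grey), as computed on the left and minus the median of all measured genes in the same setting on the right. The outlying grey points on the left are the spike scalings and, for PLG, the lower floors; on the right SERPINE2 and PLGRKT stay above 0 and SERPINF1, SERPINI1 and PLAUR below it, while PLG spreads from -1.55 to 0.39.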

How the data were processed

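Gene expression was measured on 2 arrays, 1 per group, grouped by the sample labels. The values deposited by the authors are linear probe set intensity values made with GCOS 1.3, per the submitters' processing notes. For the scaling target and the summary algorithm, a description is not given in the sources used here. These deposited intensity values have the same mean on both arrays, 1000.1, after dropping 2% at each end, so a change of all transcripts alike is not visible. Of 54675 probe sets, 41097 had 1 gene symbol in the platform annotation, 1801 several and 11777 none here; 41043 were updated through RefSeq gene IDs (GRCh38.p14). Gene order and promoters came from RefSeq; no array coordinates are given. Promoters of 6 of the 9 members were used, and member promoters on chromosome 8, which holds PLAT, were left out of the search.

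Ratios are log2 of clone over control for the probe set of a gene with the highest mean signal, with the floor at 208. The number of arrays limits the precision, and no test or p-value was possible. The members and lists were chosen with earlier results of these data known. Named were all member probe sets and, per list, genes past a ratio of 2 and the 3 with the highest mean signal; SERPING1, SERPINH1, CPB2, KLK1, MMP14 and CTSB follow from that rule, while S100A10, LRP1, ITGB2, F12, MMP2, SERPINB9, A2M, RIC1, ALB, PAPPA, LIPI, NKX2-2, EZH2, SOX2 and the fibrinogen chains were named after their values were seen. The processing was varied in 11 ways. A 12th, restricted to genes readable on both arrays, and the count at a ratio of 1.5 were added after seeing the data. Scripts used matplotlib 3.10.9, statsmodels 0.14.6, scipy 1.17.1, pandas 2.3.3 and numpy 2.4.6 under Python 3.11.15 and were tested on simulated data.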

Additional observations from a re-analysis of the deposited data

How the results depend on the processing

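No paired analysis was possible because each group holds 1 array, and no replicate could be left out. The median log2 ratio of the members, -0.22 as deposited, was 0.24 when centred on the hybridisation spikes and stayed below 0 in the other 11 alternatives. The count of members past a ratio of 2, 0 as deposited, was 1 with the floor set to 50% of its value, where PLG passed at -1.18, 3 with no floor, 2 centred on the hybridisation spikes (SERPINE2 and PLGRKT) and 1 centred on the poly-A spikes (SERPINF1). Without a floor the 3 were PLG, PLAU and SERPINF2, each with at least 1 signal under 208. The count over all genes, 393 as deposited, was 118 with the floor times 2, 1415 with the lower floor, 5054 with no floor, 1067 and 1250 on the hybridisation and poly-A spikes, 170 with 100 added to each signal and 245 over genes readable on both arrays. The count over the other 5 lists, 2 as deposited, was 0 with the floor times 2, 7 with the lower floor, 22 with no floor, 5 and 7 on the spikes, 1 with the median of a gene's probe sets and 1 without probe sets of shared sequence. The cause of these moves was not tested. Signal over background limits PLAT, PLAU, PLG and SERPINF2, for which no direction was measurable beyond the PLG bound. The PLAUR difference is within the disagreement between probe sets (SD 0.35).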

Other observations

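Among the markers of Ewing tumour cells, 10 of the 11 measured were higher in the clone. Their median log2 ratio was 0.25, and 0 passed a ratio of 2. All 11 were readable on both arrays. Of the 10795 genes readable on both arrays, 5527 were higher and 5266 lower, with a median of 0.009. Over all measured genes, bounds included, the median was -0.022. The cause of the marker directions was not tested. The 3 with the highest mean signal were CD99, a surface protein, at 31464.8 and 32238.8 (log2 ratio 0.035), STEAP1, a membrane protein, at 24514.1 and 33977.9 (0.47), and CCND1, cyclin D1, at 18275.7 and 15300.2 (-0.26), the marker that was lower. EZH2, SOX2 and NKX2-2 were near level, with log2 ratios of 0.074, 0.079 and 0.11. The 2 largest ratios, picked after their values were seen, were those of PAPPA and LIPI. PAPPA, a secreted metalloprotease that cuts insulin-like growth factor binding proteins, read 8348.5 and 16605.0, a log2 ratio of 0.99. It lies on chromosome 9, and 9 of its 11 probe sets were readable on both arrays. LIPI, a lipase used as a marker of this tumour, read 2892.0 and 4896.1, 1.69-fold higher.

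Among markers of other cell types, 3 genes passed a ratio of 2, all at low signals. They were 1 of 2 measured hepatocyte, 1 of 4 endothelial and 1 of 2 epithelial markers. None passed among 8 fibroblast, 3 macrophage and 4 neuron markers measured. Over all measured genes the share was 3.1%, and lists this small give no share to set beside it. APOH, a plasma glycoprotein of hepatocytes, read 220.6 and 455.1, 2.06-fold higher, while albumin (ALB) was under the floor at 85.5 and 127.5. CDH5, the cadherin of endothelium, read 169.2 and 424.8, at least 2.04-fold higher, while 6 of the 10 endothelial markers were readable on neither array. The 3 endothelial markers readable on both arrays were all lower in the clone, with a median log2 ratio of -0.15. PECAM1 was the furthest of these, at 435.7 and 235.0 (-0.89). KRT8, a keratin of simple epithelium, read 509.9 and 245.6, 2.08-fold lower, with the clone signal close to the floor. KRT18, the other of the 2 epithelial markers measured, was near level at 9759.9 and 10363.0 (log2 ratio 0.087). Of the fibroblast markers 8 of 10 were readable on both arrays, with a summed signal of 51100 in the control line and 49320 in the clone.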
